A study of Mus musculus with 3 samples.

Results

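The 47 genes described here are those of epithelial cell-cell contact and of the epithelial programme: adherens junction, tight junction, desmosome and polarity genes, regulators of epithelial transcription and splicing, a surface protease system and a few epithelial trafficking and matrix genes. They were picked by name from the 22658 gene models in the deposited files, and all 47 were found. They were followed in NB490, a mouse pancreatic cancer cell line engineered with an shRNA, a short RNA that leads to the destruction of matching messages, directed at PDX1 and switched on by doxycycline. PDX1 is a transcription factor of pancreas development, and the construct was held under puromycin selection. One library came from uninduced cells (0 h of doxycycline), 1 from cells after 48 h of doxycycline and 1 from cells grown out under the drug, which had been given it for over 3 weeks. All 3 were Bru-seq libraries: cells took up 2 mM bromouridine for 30 min, the labelled RNA was captured with an antibody, and its reads report the RNA made in that window. Every library carried the shRNA construct, and cells that received doxycycline without it were not analysed here, so effects of doxycycline and of the shRNA cannot be told apart. Likewise, the grown-out cells differ from the others in time in culture, and whether the line was a clone or a pool is not given in the sources used here. No condition had a second library, so no p-value was computed and each difference is one between single libraries.

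Epithelial cells are held together by 3 kinds of junction. In adherens junctions the cadherins bind across the gap between cells and are tied to actin through catenins; in tight junctions claudins, occludin and related membrane proteins seal the gap and are anchored by scaffolds such as ZO-1; in desmosomes desmosomal cadherins, plakoglobin, plakophilins and desmoplakin link the keratin filaments of neighbours. Polarity proteins set where these junctions form along the side of the cell. Transcription factors of the grainyhead, Ovol and Ets families and the Esrp splicing factors maintain this programme, while Zeb, Snail and Twist proteins repress many of its genes during epithelial-mesenchymal transition, a change of state that is much studied in pancreatic cancer.

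Levels are given as RPKM, read counts divided by model length and by the library's read total, with exact Poisson 95% intervals in parentheses that cover counting error only. The read totals behind them were 51006774 for uninduced cells, 48418864 for 48 h cells and 41632296 for grown-out cells. A gene was called measured where its mean over the libraries was at least 0.5 RPKM and its model at least 300 bp long. Nascent Pdx1 itself stood at 1.59 RPKM in uninduced, 1.05 in 48 h and 1.41 in grown-out cells, 1.51-fold lower at 48 h (interval 1.28 to 1.77). An shRNA acts on RNA after it is made, so these reads do not check the knockdown. Genes that mark cell types other than the tumour cells were low throughout: of 9 endothelial, 9 fibroblast, 10 acinar and 10 endocrine genes 0 were measured, with summed levels of 0.214 to 0.226, 0.0534 to 0.0898, 0.141 to 0.163 and 0.149 to 0.236 RPKM. One of 8 immune genes, Cd68, was measured, at 0.994, 0.916 and 0.901 RPKM. Of the keratins of simple epithelia, Krt7, Krt8, Krt18 and Krt19 were measured, with uninduced levels between 10.8 and 14.2 RPKM, whereas the epithelial surface marker Epcam was under the minimum.

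Levels of the 47 genes in NB490 cells ranged from no read to 15.7 RPKM. Of the 47 genes, 20 (42.6%) were measured, a share near the 35.1% of the 22520 gene models kept. These 20 held 5 of 6 adherens junction genes, 6 of 14 tight junction genes, 2 of 4 polarity genes, 3 of 8 desmosome genes, 2 of 7 regulators, 1 of 4 protease system genes and 1 of the 4 remaining genes. Mean levels were under 0.05 RPKM for 15 genes (31.9%, against 46.9% of all models), and 12 lay between that and the minimum. A further count, of genes without a read in any library, came to 4: the claudins Cldn3 and Cldn7, the transcription factor Ovol1 and the adaptor subunit Ap1m2. The members closest to the minimum were Ppl just below it, with a mean of 0.493 RPKM, and Cdh3 and Elf3 just above it, each at 0.532 RPKM.

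**Figure D1:**
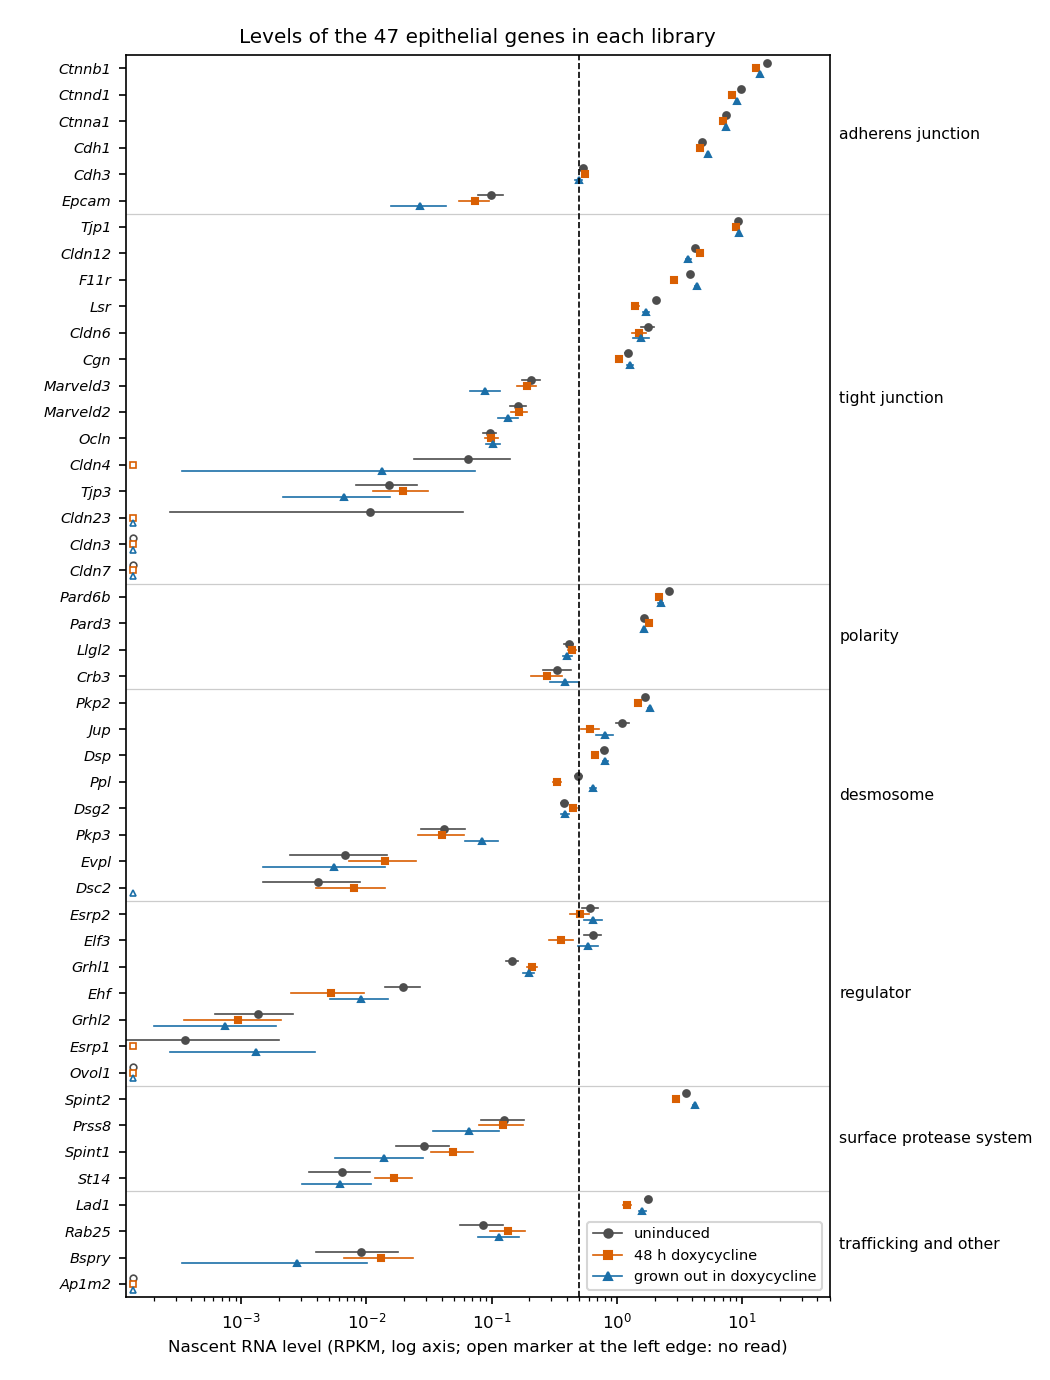
Level of each of the 47 genes in the 3 libraries, in RPKM on a log axis, grouped by role. Points are single libraries, bars are Poisson 95% intervals for counting error, open markers at the left edge stand for no read, and the dashed line marks the minimum of 0.5 RPKM. The catenins and Tjp1 sit at the right, while Cldn3, Cldn7, Ovol1 and Ap1m2 had no read in any library.

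Promoter sequence was examined because the E-box CAGGTG, read as CACCTG on the other strand, is the site that Zeb and Snail repressors recognise. RefSeq windows of the 250 bases before the transcript start, in mouse build GRCm38.p6, were matched by symbol. They were used for 28 of the 47 genes (39 windows, since some genes have several starts). No window was used for the other 19, Cdh1, Ctnna1, Dsc2 and Dsg2 among them. The members' shares below therefore do not cover those genes. The E-box stood in 17 of the 39 windows (43.6%) on either strand, against 17.2% of 32851 promoters of the same length. Among windows of measured members 35% held it, against 13.7% of those of all measured genes. The share was 52.6% among the 19 windows of members under the minimum, against 18.6% for all genes under it. Counted by gene, 15 of 28 had at least 1 E-box (53.6%), against 19.4% of 27025 genes. The members' windows were also richer in G and C, with a median of 62% against 52.4% for all promoters and 60.8% for those of measured genes, and the part of base composition in the E-box share was not tested. A match is a run of letters and not a measured binding site, and windows of 1 gene can overlap.

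E-box promoters of 4 members that were under the minimum are shown first, each 5′ to 3′ on the gene's strand with the E-boxes in capitals. They are a cell-surface adhesion gene, a claudin, a GTPase of apical recycling and the epithelial adaptor subunit without a read, and were chosen after their sequences and levels had been seen. The windows are chr17:87635729-87635978 on the plus strand for Epcam and, on the minus strand, chr5:134946935-134947184 for Cldn4, chr3:88548280-88548529 for Rab25 and chr9:21312334-21312583 for Ap1m2.
Epcam: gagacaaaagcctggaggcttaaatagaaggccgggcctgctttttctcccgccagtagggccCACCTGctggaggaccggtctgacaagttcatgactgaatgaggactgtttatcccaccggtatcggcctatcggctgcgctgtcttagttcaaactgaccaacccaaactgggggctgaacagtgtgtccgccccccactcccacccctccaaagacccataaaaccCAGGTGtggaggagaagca
Cldn4: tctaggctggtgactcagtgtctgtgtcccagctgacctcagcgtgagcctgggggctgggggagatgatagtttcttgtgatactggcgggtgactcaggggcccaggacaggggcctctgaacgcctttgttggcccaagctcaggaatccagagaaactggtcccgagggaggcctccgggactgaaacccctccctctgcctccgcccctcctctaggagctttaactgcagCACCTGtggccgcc
Rab25: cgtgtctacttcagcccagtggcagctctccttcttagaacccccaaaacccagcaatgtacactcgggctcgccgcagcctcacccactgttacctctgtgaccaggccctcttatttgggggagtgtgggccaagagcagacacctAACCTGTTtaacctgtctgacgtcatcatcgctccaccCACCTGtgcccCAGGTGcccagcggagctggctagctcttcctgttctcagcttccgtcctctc
Ap1m2: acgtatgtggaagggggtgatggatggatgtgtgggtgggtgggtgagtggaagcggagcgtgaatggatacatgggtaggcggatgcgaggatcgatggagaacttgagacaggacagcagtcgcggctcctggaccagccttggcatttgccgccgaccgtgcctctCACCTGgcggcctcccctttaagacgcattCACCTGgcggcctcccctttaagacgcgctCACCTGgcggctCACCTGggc
The Cldn4 E-box starts at -14, counted from the transcript start, and the Ap1m2 window holds 4 of them starting at -81, -51, -21 and -9. In Rab25 the first run in capitals is a match to the grainyhead motif AACNGGTT, searched on both strands, which was found in 2 of the members' 39 windows (5.13%, Cgn and Rab25) against 1.79% of all promoters.

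The same letters stood in promoters of members above the minimum. The windows shown, again chosen with their values known, are of genes that differed between libraries: chr1:171437311-171437560 on the plus strand for F11r and, on the minus strand, chr7:30973470-30973719 for Lsr, chr7:29281978-29282227 for Spint2 and chr1:135258473-135258722 for Elf3.
F11r: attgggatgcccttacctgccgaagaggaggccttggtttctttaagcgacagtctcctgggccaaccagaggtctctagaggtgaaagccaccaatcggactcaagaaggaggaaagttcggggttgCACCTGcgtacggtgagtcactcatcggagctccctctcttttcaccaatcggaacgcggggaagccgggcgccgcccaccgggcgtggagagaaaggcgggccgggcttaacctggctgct
Lsr: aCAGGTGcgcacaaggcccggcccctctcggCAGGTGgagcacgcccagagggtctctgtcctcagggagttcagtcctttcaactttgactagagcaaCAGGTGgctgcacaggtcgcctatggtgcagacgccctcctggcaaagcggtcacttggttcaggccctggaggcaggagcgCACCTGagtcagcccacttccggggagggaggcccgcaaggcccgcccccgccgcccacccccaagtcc
Spint2: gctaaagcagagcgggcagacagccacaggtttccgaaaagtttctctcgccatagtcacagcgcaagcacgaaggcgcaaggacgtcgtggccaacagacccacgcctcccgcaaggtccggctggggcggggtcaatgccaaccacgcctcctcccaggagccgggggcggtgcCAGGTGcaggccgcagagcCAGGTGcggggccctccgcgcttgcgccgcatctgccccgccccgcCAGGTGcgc
Elf3: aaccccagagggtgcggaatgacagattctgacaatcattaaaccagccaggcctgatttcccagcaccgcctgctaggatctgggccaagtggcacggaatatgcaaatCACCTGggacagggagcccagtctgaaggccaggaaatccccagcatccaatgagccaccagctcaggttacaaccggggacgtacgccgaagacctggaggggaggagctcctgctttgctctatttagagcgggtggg
Lsr held 4 E-boxes and Spint2 held 3, at mean levels of 1.73 and 3.58 RPKM. The E-box was thus present in windows of members above and below the minimum. The 4 windows were picked among those that hold it. The windows of Jup and Lad1, which also differed past 1.3-fold, held no E-box. Of the 15 measured members with a window, 7 had at least 1. Of the measured factors that read it, Zeb1 was at 1.73, 1.77 and 1.47 RPKM and Snai2 at 1.32, 1.02 and 1.05 RPKM, in the order uninduced, 48 h, grown out. Under the minimum, Zeb2 stood higher in both doxycycline conditions than in uninduced cells, with values given below. The level of Snai1 was lower in both, a difference between low levels that is given without a counting interval.

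**Figure D2:**
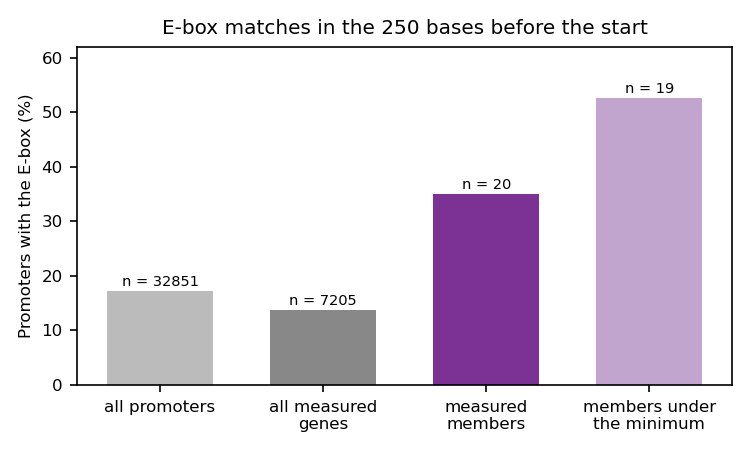
Share of promoter windows, in percent, that hold the E-box on either strand, with the number of windows above each bar. The bars stand at 17.2% for all promoters, 13.7% for all measured genes, 35% for measured members and 52.6% for members under the minimum.

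At 48 h of doxycycline the measured epithelial genes were mostly lower than in uninduced cells, by small amounts. The transcription factor Elf3, the plaque protein plakoglobin (Jup), the basement membrane protein Lad1 and the tight junction genes Lsr and F11r were lower by more than 1.3-fold, 5 of 20 members, against 7.63% of the 7915 measured genes. None of the 20 was higher by that much (1.82% of measured genes), and none differed by more than 2-fold (0.745%). Of the 9 members with a mean of at least 2 RPKM, 1, F11r, was lower past 1.3-fold. Of the 20, 15 were lower beyond counting error, meaning that the exact 95% interval of the fold excluded no change, against 30% of measured genes. Cldn12 and Pard3, 2 of 20, were higher beyond it, against 30.1%. On the scale of log2(RPKM + 0.05), which understates differences of low genes and is the scale of every threshold and median here, the members' median difference was -0.23, against 0.00 for all measured genes; without a minimum it was -0.079 over the 43 members with reads.

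Grown-out cells stood closer to uninduced cells. Only Jup was lower by more than 1.3-fold (7.3% of measured genes), none of the 20 members was higher by that much (4.6%) and none differed by more than 2-fold (0.872%). Beyond counting error, 7 members were lower, against 29.5% of measured genes, and 4, Cdh1, F11r, Pkp2 and Spint2, were higher, against 33.6%. The members' median log2 difference was -0.05, against 0.01 for all measured genes.

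Set against the 48 h library directly, grown-out cells had higher levels of Elf3, F11r, Spint2 and Lad1 by more than 1.3-fold, 4 of 20 members, against 9.78% of measured genes; with a pseudocount of 0.5 RPKM 2 passed. None of the 20 was lower by that much (6.04%) and none differed by more than 2-fold (1.02%). Beyond counting error, 15 were higher (35.6% of measured genes), while Cdh3, Cldn12 and Pard3 were lower (32%). The median log2 difference of the members was 0.24, against 0.01 for all measured genes, but 0.10 over the 9 members of at least 2 RPKM and 0.038 over the 43 members with a read in any library. The 48 h library had the lowest level of the 3 for 17 of the 20 members, against 34.8% of measured genes. It had the highest for Cldn12, Pard3 and Cdh3, and the share of all measured genes highest at 48 h was not computed. The 48 h library is in both of the comparisons that set it apart. The order of the 3 libraries is therefore a single description of 1 library and not 2 separate results.

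**Figure D3:**
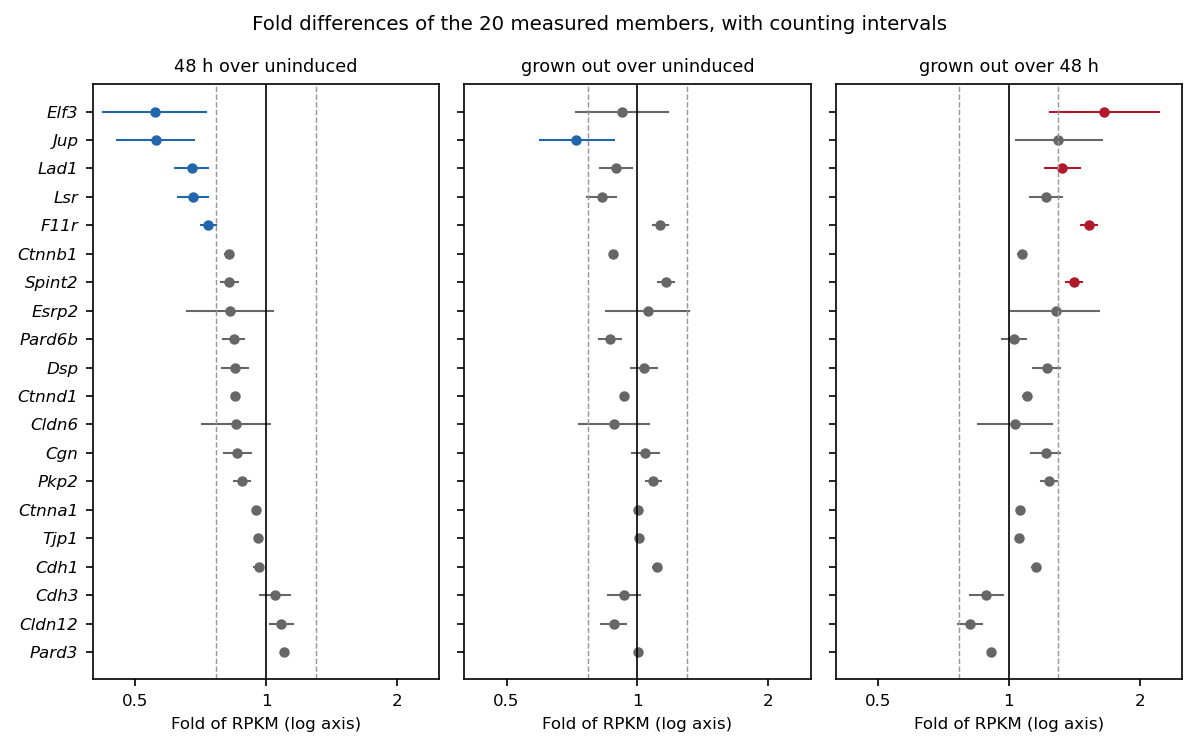
Fold of RPKM for the 20 measured members in the 3 comparisons, on a log axis, with exact 95% intervals for counting error; dashed lines mark 1.3-fold. Blue and red points are lower and higher past 1.3-fold on the log2(RPKM + 0.05) scale. Elf3, Jup, Lad1, Lsr and F11r are blue at 48 h, and Elf3, F11r, Spint2 and Lad1 are red in grown-out against 48 h cells.

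**Figure D4:**
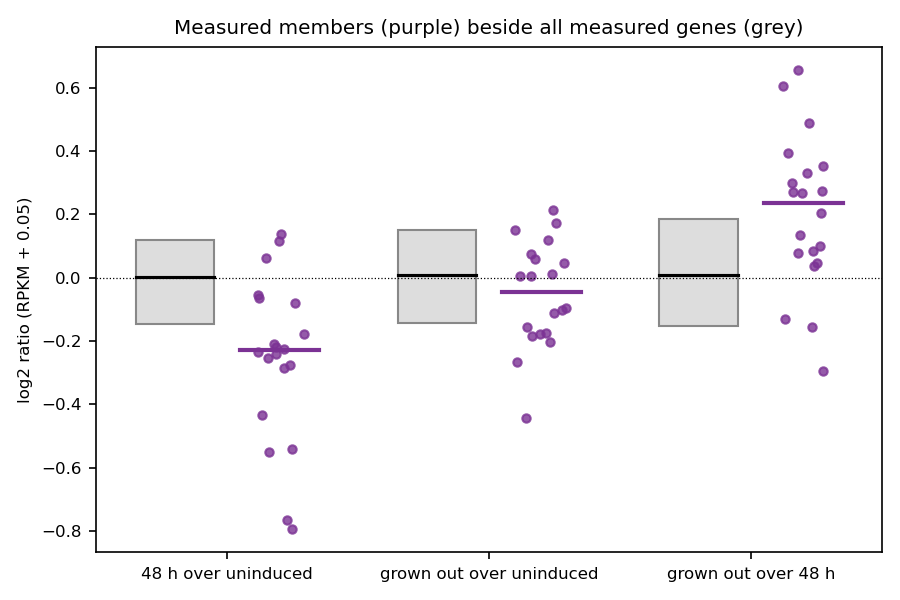
Log2 ratio of RPKM + 0.05 for the 20 measured members (purple points, with their median as a line) beside all 7915 measured genes (grey box, middle 50% of genes with the median as a black line). The members' median lies at -0.23 for 48 h against uninduced, -0.05 for grown-out against uninduced and 0.24 for grown-out against 48 h.

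The adherens junction genes held 4 of the 9 members with a mean of at least 2 RPKM. None of the 5 measured passed 1.3-fold in any comparison. Over all measured genes, 1.82% to 9.78% passed it per direction and comparison, so a count of none among 5 genes is near those shares. Cdh1 (chromosome 8, 109127268 to 109194146, plus strand) encodes E-cadherin, the cadherin of epithelial adherens junctions. It stood at 4.81 RPKM in uninduced cells (4.74 to 4.89), 4.63 at 48 h (4.56 to 4.70) and 5.35 after outgrowth (5.26 to 5.43). Grown-out cells thus had the highest Cdh1 level, 1.11-fold over uninduced (1.09 to 1.14) and 1.15-fold over 48 h cells (1.13 to 1.18), while 48 h cells were 1.04-fold lower than uninduced (1.02 to 1.06). P-cadherin (Cdh3) lies 46.5 kb from Cdh1 on the same strand. Its levels were 0.536, 0.561 and 0.498 RPKM, and it was 1.13-fold lower in grown-out than in 48 h cells (1.03 to 1.23).

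Beta-catenin (Ctnnb1), which links cadherin to alpha-catenin and also carries Wnt signals, had the highest level of all members. It was 15.7 RPKM in uninduced, 12.9 in 48 h and 13.9 in grown-out cells, 1.22-fold lower at 48 h (1.19 to 1.24). Alpha-catenin (Ctnna1), the link to actin, was nearly level at 7.46, 7.06 and 7.48 RPKM. The p120 catenin gene Ctnnd1, whose product stabilises cadherins at the membrane, was at 9.80, 8.32 and 9.13 RPKM, again lowest at 48 h. Epcam (chromosome 17, 88035319 to 88050467, plus strand), a surface adhesion protein of simple epithelia, was far below these, with 76, 54 and 17 reads or 0.0984, 0.0736 and 0.0270 RPKM. Its level in grown-out cells was 3.65-fold lower than in uninduced cells (2.14 to 6.59), a difference between low levels and opposite in direction to that of Cdh1.

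Of 14 tight junction genes, 6 were measured: the scaffold and adaptor genes Tjp1 and Cgn and the membrane protein genes Cldn12, F11r, Lsr and Cldn6. The ZO-1 gene Tjp1 (chromosome 7, 72441051 to 72516130, minus strand) was nearly level at 9.36 RPKM in uninduced (9.26 to 9.46), 8.95 in 48 h (8.86 to 9.05) and 9.45 after outgrowth (9.34 to 9.55). F11r (chromosome 1, 173367692 to 173394724, plus strand), the junctional adhesion molecule JAM-A, moved more. It was 3.87 RPKM without doxycycline (3.77 to 3.97), 2.85 after 48 h of it (2.76 to 2.95) and 4.37 after outgrowth (4.25 to 4.49). At 48 h it was 1.36-fold lower than uninduced (1.301 to 1.41). The grown-out level was 1.53-fold above 48 h (1.47 to 1.60) and 1.13-fold above uninduced (1.09 to 1.17). F11r therefore had its lowest level at 48 h and its highest in grown-out cells, with no overlap of the 3 intervals.

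Lsr (chromosome 7, 31742789 to 31758488, minus strand) encodes angulin-1, which recruits tricellulin to the corners where 3 cells meet. Its level was 2.07 RPKM in uninduced cells (1.97 to 2.17), 1.41 at 48 h (1.32 to 1.49) and 1.71 after outgrowth (1.61 to 1.82). That is 1.47-fold lower at 48 h (1.36 to 1.59) and 1.21-fold lower in grown-out cells (1.12 to 1.305). The grown-out level of Lsr thus lay between the other two. The tight junction adaptor cingulin (Cgn) was at 1.22, 1.05 and 1.27 RPKM. Of the claudins, Cldn12 was at 4.23, 4.59 and 3.73 RPKM, highest at 48 h, and Cldn6, an early embryonic claudin, at 1.77, 1.51 and 1.56 RPKM with intervals of the folds that included no change.

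The remaining 8 tight junction genes were under the minimum. Occludin (Ocln) had 271, 266 and 237 reads and levels of 0.0964, 0.0996 and 0.103 RPKM, with no difference beyond counting error. Tricellulin (Marveld2), whose model lies 43.5 kb from Ocln on the same strand, was at 0.163, 0.166 and 0.135 RPKM, also within counting error. Marveld3, the third protein of the occludin family, had 151, 133 and 53 reads and was 2.33-fold lower in grown-out than in uninduced cells (1.69 to 3.24). Cldn4 had 6, 0 and 1 reads, Cldn23 had 1, 0 and 0, and the ZO-3 gene Tjp3 had 14, 17 and 5. Cldn3, which lies 39.3 kb from Cldn4, and Cldn7 had 0 reads in each library. In the shallowest library 3 reads would stand for 0.0571 RPKM for Cldn3 and 0.0232 RPKM for Cldn7.

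Of the polarity genes, both measured members belong to the Par complex at the apical border. Pard6b was at 2.59, 2.18 and 2.24 RPKM in uninduced, 48 h and grown-out cells, 1.19-fold lower at 48 h (1.12 to 1.26) and 1.16-fold lower in grown-out cells (1.09 to 1.23). Pard3, which brings the complex to tight junctions, was at 1.65, 1.82 and 1.66 RPKM, 1.10-fold higher at 48 h (1.09 to 1.12) and within counting error of the uninduced level in grown-out cells. The basolateral determinant Llgl2 was at 0.412, 0.440 and 0.404 RPKM. The apical Crumbs gene Crb3 was at 0.334, 0.278 and 0.383 RPKM, from 62, 49 and 58 reads. Neither Llgl2 nor Crb3 differed beyond counting error in any of the 3 comparisons.

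Among desmosome genes, Jup was the only measured member lower past 1.3-fold in both doxycycline conditions. Jup (chromosome 11, 100230170 to 100259104, minus strand) encodes plakoglobin, a plaque protein of desmosomes that is also found in adherens junctions. Its level was 1.10 RPKM in uninduced cells (0.979 to 1.24), 0.615 at 48 h (0.520 to 0.721) and 0.799 after outgrowth (0.684 to 0.932). It was 1.79-fold lower at 48 h (1.47 to 2.21) and 1.38-fold lower in grown-out cells (1.13 to 1.68), the single member past 1.3-fold in that comparison. These values rest on 282, 149 and 167 reads over a deposited length of 5009 bp of a span of 28935 bp. The Jup model lies inside a far longer model on the same strand, Mir684-1, of 0.0663, 0.0743 and 0.0859 RPKM. How reads were shared between them is not given in the sources used here. With a pseudocount of 0.5 RPKM in place of 0.05, 0 members were lower past 1.3-fold in grown-out cells, Jup included.

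Desmoplakin (Dsp; chromosome 13, 38243163 to 38290446, plus strand), which ties the plaque to keratin, was at 0.783 RPKM in uninduced cells (0.748 to 0.819), 0.663 at 48 h (0.631 to 0.698) and 0.810 after outgrowth (0.771 to 0.851). It was 1.18-fold lower at 48 h (1.10 to 1.26), and its uninduced and grown-out intervals overlap. Plakophilin 2 (Pkp2), an armadillo protein of the plaque, was at 1.69, 1.48 and 1.83 RPKM, 1.14-fold lower at 48 h (1.09 to 1.18) and 1.09-fold higher in grown-out cells (1.05 to 1.13). Periplakin (Ppl), a cytolinker related to desmoplakin, stood just under the minimum at 0.494, 0.335 and 0.651 RPKM. It was 1.48-fold lower at 48 h than uninduced (1.34 to 1.62), and the grown-out level was 1.94-fold above 48 h (1.77 to 2.13) and 1.32-fold above uninduced (1.22 to 1.43). The cadherin Dsg2 went the other way at 48 h, at 0.380, 0.450 and 0.383 RPKM, 1.18-fold higher than uninduced (1.08 to 1.297). Plakophilin 3 (Pkp3) had 26, 24 and 43 reads and was 2.03-fold higher in grown-out than in uninduced cells (1.22 to 3.44). The desmosomal cadherin Dsc2 had 6, 11 and 0 reads, and envoplakin (Evpl) 6, 12 and 4.

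Of the 2 measured regulators, the epithelial Ets factor Elf3 (chromosome 1, 137150151 to 137155049, minus strand) had the larger difference at 48 h. It stood at 0.644 RPKM in uninduced cells (0.549 to 0.752), 0.358 at 48 h (0.286 to 0.443) and 0.593 after outgrowth (0.492 to 0.709), from 161, 85 and 121 reads. That is 1.798-fold lower at 48 h (1.37 to 2.37) and 1.66-fold higher in grown-out than in 48 h cells (1.24 to 2.21), while grown-out and uninduced cells did not differ beyond counting error (1.09-fold lower, 0.853 to 1.39). The splicing factor gene Esrp2 was at 0.612, 0.505 and 0.648 RPKM, within counting error in both comparisons with uninduced cells. Its model shares 27.2% of its span with a model on the opposite strand, 1810019D21Rik, of 0.504, 0.198 and 0.383 RPKM, which was also lowest at 48 h. Across 26 models nested opposite to a host gene, the median density was 0.00109 of that of the host, so few reads of one strand were counted on the other.

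The other 5 regulators were under the minimum. Grhl2, the grainyhead factor that drives Cdh1 and claudin genes in many epithelia, had 9, 6 and 4 reads over a 130533 bp model, and the splicing factor Esrp1 had 1, 0 and 3. Ovol1, a repressor of Zeb1, had 0 reads, and 3 reads would stand for 0.00630 RPKM in the shallowest library. The paralogue Grhl1 was at 0.146, 0.210 and 0.199 RPKM, from 336, 458 and 373 reads. It was 1.44-fold higher at 48 h (1.24 to 1.66) and 1.36-fold higher in grown-out cells (1.17 to 1.58), the reverse of Elf3 at 48 h. The Ets factor Ehf had 40, 10 and 15 reads and was 3.797-fold lower at 48 h (1.87 to 8.51) and 2.18-fold lower in grown-out cells (1.18 to 4.24).

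In the surface protease system, which joins the membrane protease matriptase (St14), its partner prostasin (Prss8) and their Kunitz-type inhibitors Spint1 and Spint2, only the inhibitor Spint2 was measured. Spint2 (chromosome 7, 30041349 to 30066996, minus strand) was at 3.60 RPKM in uninduced (3.50 to 3.71), 2.97 at 48 h (2.87 to 3.06) and 4.18 after outgrowth (4.06 to 4.31). It was 1.21-fold lower at 48 h (1.16 to 1.27), and the grown-out level was 1.41-fold above 48 h (1.35 to 1.47) and 1.16-fold above uninduced (1.11 to 1.21), the same order of the 3 libraries as for F11r. St14 had 14, 35 and 11 reads, 2.63-fold higher at 48 h than uninduced (1.38 to 5.30). Prss8 had 28, 26 and 12 reads, within counting error in every comparison. Spint1 had 18, 29 and 7, and was 3.56-fold lower in grown-out than in 48 h cells (1.53 to 9.63).

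Lad1 (chromosome 1, 137715175 to 137729918, plus strand), an anchoring filament protein of the basement membrane zone, was at 1.79 RPKM in uninduced (1.69 to 1.89), 1.21 at 48 h (1.13 to 1.29) and 1.60 after outgrowth (1.498 to 1.70). It was 1.48-fold lower at 48 h (1.36 to 1.62) and 1.12-fold lower in grown-out cells (1.03 to 1.22), and grown-out cells were 1.33-fold above 48 h (1.21 to 1.45). The trafficking genes were low. Rab25, a GTPase of apical recycling endosomes, had 27, 41 and 30 reads, within counting error in every comparison. Bspry had 8, 11 and 2 reads. The epithelial AP-1 adaptor subunit Ap1m2 had 0 in each, and 3 reads would stand for 0.00427 RPKM in the shallowest library.

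Over the 27 members under the minimum, differences beyond counting error at 48 h against uninduced were 3 higher (Dsg2, Grhl1 and St14) and 3 lower (Cldn4, Ppl and Ehf), against 5.04% higher and 8.37% lower of the 14605 gene models under it. In grown-out against uninduced cells they were again 3 higher (Pkp3, Ppl and Grhl1) and 3 lower (Epcam, Marveld3 and Ehf), against 4.16% and 12.7%. In grown-out against 48 h cells 2 were higher (Ppl and Pkp3) and 8 lower (Epcam, Marveld3, Tjp3, Dsc2, Dsg2, St14, Spint1 and Bspry), against 5.9% and 11.2%. Of the 27 members, 12 lie from 0.05 RPKM to the minimum. Among the genes just named, Cldn4, Ehf, St14, Tjp3, Dsc2, Spint1 and Bspry had means under 0.05 RPKM and lie outside that range. Over the 4044 genes of that range the shares were larger. At 48 h they were 13.45% higher and 21.32% lower. In grown-out cells they were 12.39% and 28.93% against uninduced, and 16.86% and 25.96% against 48 h. More of these low models were lower than higher in each comparison. Many have too few reads for any call, so the members' counts are given as a description. In such bulk libraries fewer cells that transcribe a gene and less RNA per cell cannot be told apart.

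Model length moved with the 48 h difference. The 7 measured members of under 20 kb, by deposited length, had a median log2 difference of -0.54, and 4 of them, Elf3, Jup, Lad1 and Lsr, were lower past 1.3-fold. The 13 longer members had a median of -0.21, and 1, F11r, was lower past 1.3-fold. Over all measured genes the medians were -0.02 and 0.02, and 10.5% of the shorter but 5.11% of the longer genes were lower past 1.3-fold. In grown-out against 48 h cells the members' medians were 0.33 and 0.13. The part of length in these differences was not tested.

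Other genes of cell adhesion were taken from lists by function, and differences between the lists were not tested. All 6 measured genes of hemidesmosomes and basal adhesion were lower beyond counting error at 48 h (30% of measured genes), with a median log2 difference of -0.28. In grown-out against 48 h cells 3 of the 6 were higher past 1.3-fold (9.78% of measured genes). Among them, the laminin receptor subunit Itga6 was at 5.20, 3.81 and 6.29 RPKM in uninduced, 48 h and grown-out cells, and the cytolinker Plec at 0.940, 0.778 and 1.16 RPKM.

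The gap junction gene Gja1 was at 1.55, 1.73 and 2.06 RPKM, 1.12-fold higher at 48 h (1.02 to 1.22) and 1.33-fold higher in grown-out cells than in uninduced ones (1.22 to 1.45). Of 9 other measured tight junction genes 1, the virus receptor and adhesion protein Cxadr, was lower past 1.3-fold at 48 h (7.63% of measured genes). Cxadr was at 3.24, 2.46 and 2.41 RPKM. None of the 9 was higher past 1.3-fold at 48 h (1.82% of measured genes). None of the 9 further adherens junction genes that were measured passed 1.3-fold at 48 h, with a median of -0.16. Of all measured genes, 7.63% were lower and 1.82% higher past it. In grown-out cells 2, the nectin Pvrl2 and the junction protein Plekha7, were lower past it (7.3% of measured genes). Under the minimum, Cdh6 was at 0.508, 0.157 and 0.162 RPKM, 3.24-fold lower at 48 h (3.03 to 3.47). Cdh11, also under it, was 1.20-fold higher at 48 h (1.04 to 1.39). Pvrl2 was at 0.762, 0.608 and 0.528 RPKM and Plekha7 at 0.855, 0.750 and 0.587 RPKM. The 10 other measured polarity genes had a median of 0.06 at 48 h. Of them, Dlg3 was higher past 1.3-fold (1.82% of measured genes), at 0.432, 0.763 and 0.427 RPKM. Both other measured desmosome genes, Perp and Pkp4, were lower at 48 h and higher in grown-out cells beyond counting error, Perp at 1.301, 1.15 and 1.55 RPKM.

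Of 9 other epithelial regulators that were measured, 7 were lower beyond counting error at 48 h (30% of measured genes). Past 1.3-fold 3 of them were lower (7.63%). The largest ratios over the 3 comparisons were those of Tfap2a, at 1.39, 0.948 and 1.79 RPKM, and of the forkhead factors Foxa2, at 1.36, 0.885 and 1.37 RPKM, and Foxa1, at 0.668, 0.591 and 0.346 RPKM. Tfap2a and Foxa2 were thus lowest at 48 h, while Foxa1 was lowest in grown-out cells. Klf4 was at 0.892, 0.750 and 1.16 RPKM. Of the simple epithelial keratins, Krt19 was lower past 1.3-fold at 48 h and in grown-out cells, at 13.6, 8.01 and 10.1 RPKM, whereas Krt8 and Krt18 were at 10.8, 9.62 and 11.4 and at 14.2, 15.1 and 13.5 RPKM.

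Repressors of the epithelial programme were measured for 5 of 11 genes. At 48 h 0 of the 5 were higher (30.1% of measured genes) and 3 were lower (30%) beyond counting error. All 5 were lower in grown-out than in uninduced cells (29.5% of measured genes), with a median log2 difference of -0.32. Twist2 was at 1.41, 0.642 and 0.770 RPKM and Twist1 at 0.707, 0.559 and 0.456 RPKM. Zeb1 was 1.18-fold lower in grown-out than in uninduced cells (1.15 to 1.20). Under the minimum, Snai1 was at 0.0727, 0.0315 and 0.0157 RPKM, low levels given without a counting interval, and Zeb2 at 0.328, 0.513 and 0.442 RPKM. Zeb2 was 1.565-fold higher at 48 h (1.48 to 1.65) and 1.35-fold higher in grown-out cells (1.27 to 1.43). Prrx1, with 187, 168 and 280 reads, was 1.83-fold higher in grown-out than in uninduced cells (1.52 to 2.22), so the list did not go one way. Among 7 measured mesenchymal genes, fibronectin (Fn1) was at 2.51, 1.57 and 0.731 RPKM, and the lysyl oxidase Loxl2 at 0.707, 0.508 and 0.330 RPKM, both lowest in grown-out cells. Vimentin (Vim), the intermediate filament of mesenchymal cells, was at 34.6, 25.2 and 36.4 RPKM, lowest at 48 h like most of the measured epithelial members, and S100a4 was at 2.70, 2.31 and 3.90 RPKM.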

How the data were processed

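Bru-labelled RNA from 3 NB490 libraries, 1 per condition, was analysed from the deposited per-gene tables. Tools listed in the submitters' processing notes are bedtools 2.16.2, TopHat 1.4.1, Bowtie 0.12.8 and CASAVA 1.8.2. The notes also name the build hg19, although the models carry mouse symbols, so the build of the coordinates is not settled by the sources used here and they were not mixed with GRCm38.p6. Per the file headers, the deposited estimated counts are reads over whole gene models, introns included; 47.3% to 48.5% of those above 0 were whole reads (tolerance 0.01). The main measure was the deposited RPKM, scaled per the file headers by model length and library total. The deposited reads-per-base signal was not used.

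Of 22658 models 138 were left out, 133 with a repeated symbol and 17 over 3 Mb, some being both, which left 22520. Ratios were log2(RPKM + 0.05). A gene passed 1.3-fold or 2-fold where this ratio reached that size and the exact conditional binomial 95% interval of the fold, from the counts, excluded no change. Reads are not independent molecules, so intervals and the 3-read floor cover counting error only. The calculations were tested on simulated data that held counting error only, with calls checked at 2-fold and not at 1.3-fold. They were run in Python 3.11.15 with scipy 1.17.1. Members and lists were chosen with earlier results of these data known. Values in every library were given for measured members past 1.3-fold in any comparison and for Cdh1, Epcam, Ocln, Tjp1, Esrp1, Grhl2, Elf3, Dsp and Jup, the other members by group and range with examples, and, in each other list, up to 4 measured genes with the largest ratio plus Zeb1 and Vim; further genes were added with their values known, and some genes of 1 list are not reported here. Alternatives were the pseudocount, the expression minimum, the length minimum, the fold threshold, TMM (edgeR 4.0.16) and median ratio scaling of the counts, and leaving out members that overlap another model on the same strand. There was no replicate to leave out.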

Additional observations from a re-analysis of the deposited data

Results flagged for a closer look

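Of the members, 6 stood above the uninduced library in one doxycycline condition and below it in the other, each beyond counting error. Of the 20 measured members, 4 were lower at 48 h and higher in grown-out cells (8.49% of measured genes) and 1 had the reverse order (6.15%). The member left, Ppl, was just under the minimum, with a mean of 0.493 RPKM. Of all genes under the minimum, many with too few reads for any call, 0.81% were lower and then higher. At its level the 8.49% of measured genes is the nearer comparison. The difference between the conditions was not tested across replicates, since each had 1 library. Grown-out minus 48 h log2 ratios were 0.86 for Ppl, the desmosomal cytolinker under the expression minimum, 0.61 for F11r (JAM-A), 0.49 for the protease inhibitor Spint2, 0.30 for the plakophilin Pkp2 and 0.21 for Cdh1 (E-cadherin). All 5 were lower than uninduced at 48 h and higher in grown-out cells. Cldn12 had the reverse order, with a ratio of -0.29.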

How the results depend on the processing

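TMM and median ratio scaling changed no count of members past a threshold, and no log2 ratio of a member given in full changed sign. With a pseudocount of 0.5 RPKM, 0 members were lower past 1.3-fold in grown-out against uninduced cells and 2 were higher in grown-out against 48 h cells. A minimum mean of 2 RPKM left 9 members: 1 lower at 48 h, 0 lower in grown-out cells, 2 higher in grown-out against 48 h cells, and a median of 0.10 there. Without a minimum, 43 members gave 1 higher at 48 h (Grhl1), 1 past 2-fold at 48 h (Cldn4, 6 reads against 0), a 48 h median of -0.079, 1 higher (Pkp3) and 3 lower (Jup, Epcam and Marveld3) in grown-out cells, and, against 48 h, 3 lower (Epcam, Marveld3 and Spint1) and a median of 0.038. At 1.5-fold, 2 members were lower at 48 h, 0 in grown-out cells, and 2 were higher in grown-out against 48 h cells. Without Jup, the member that overlaps another model on the same strand, 0 of 19 were lower past 1.3-fold in grown-out cells. The cause of these shifts was not tested, beyond the fewer or more members counted. Shares of all genes at these alternative settings are not given, here or above, so the counts stand without a background. Members with few reads have wide intervals, such as 2.14 to 6.59 for the 3.65-fold difference of Epcam. No paired analysis was possible because each condition had 1 library.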
